A study of Mus musculus with 6 samples.

Results

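Iron handling was examined through 10 genes chosen by symbol for their roles, with earlier results of these data known. All 10 had a row among the 36870 gene symbols of the RNA-seq table. They encode the carrier transferrin and its receptor (Trf, Tfrc), a ferrireductase (Steap4), the NRAMP transporters that move iron out of endosomes and phagosomes (Slc11a2, Slc11a1), the ferritin chains (Fth1, Ftl1), the exporter ferroportin (Slc40a1), the ferroxidase ceruloplasmin (Cp) and an iron regulatory protein (Ireb2). The libraries came from cultures of adherent cells of C57BL/6 mouse bone marrow, which the study calls BMMSCs (bone marrow mesenchymal stem cells). They were at passage 2 by the labels and at passage 1 by the methods of the study. Markers of macrophages were also abundant in them, as given below. Control cells (n = 3) received non-targeting siRNA by the labels' treatment protocol and are called vehicle-treated in the sequencing methods, and siTet1/Tet2 cells (n = 3) received siRNAs against Tet1 and Tet2, enzymes that oxidise methylated cytosine in DNA. The cells carried no engineered allele by the labels, and the age of the mice is not given in the sources used here. The labels do not say whether the 3 libraries of a group were separate cultures or animals, so the p-values measure only the spread between these libraries.

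A cell takes up iron as transferrin bound to its receptor, reduces it and moves it out of the endosome, keeps the surplus inside ferritin shells built from heavy and light chains, and releases it through ferroportin, with a ferroxidase on the outside. Macrophages of the marrow recycle the iron of engulfed red cells and use the same storage and export genes together with haem oxygenase. Iron regulatory proteins bind a hairpin in the mRNA, the iron-responsive element. In the 5′ UTR this holds back translation, as in ferritin and ferroportin, and in the 3′ UTR it protects the mRNA of the transferrin receptor, so that an mRNA level does not give the protein level of these genes.

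The hairpins are shown because they are where iron regulatory proteins bind an mRNA. The search below covers 1 strict form of the hairpin, so it does not sort the members into bound and unbound. The coding transcripts of GENCODE M21 on GRCm38 were searched on the sense strand for the loop CAGTGN. The loop had to be closed by 5 paired bases on each side (G with U allowed). A C had to come just before the first of these bases, and whether it was unpaired was not checked. There were 7 sites in 4 of the 10 members, with 1 each in the 5′ UTR of Fth1, Ftl1 and Slc40a1 and 4 in the 3′ UTR of Tfrc. Among 21877 coding genes, 0.142% held such a site in a 5′ UTR and 0.590% in a 3′ UTR. The 30 bases around each site are given 5′ to 3′ as DNA letters, with the loop in capitals. The Fth1 site lies at chr19:9982732-9982761 (+ strand), the Ftl1 site at chr7:45459778-45459807 (− strand), the Slc40a1 site at chr1:45925464-45925493 (− strand), and the Tfrc sites start at 32631219, 32631598, 32631663 and 32631710 on chromosome 16 (+ strand).
Fth1: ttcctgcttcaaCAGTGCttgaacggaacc
Ftl1: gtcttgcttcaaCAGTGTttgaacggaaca
Slc40a1: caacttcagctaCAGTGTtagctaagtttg
Tfrc site A: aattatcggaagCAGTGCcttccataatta
Tfrc site B: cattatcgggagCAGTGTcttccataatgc
Tfrc site C: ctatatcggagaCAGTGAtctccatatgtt
Tfrc site D: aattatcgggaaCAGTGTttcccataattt
The bases just before and just after the loop were the same in Fth1 and Ftl1, and Slc40a1 had another stem. No site of this exact form was found in the annotated UTRs of the other members. This says only that these letters and pairs were not there, and a hairpin of another form would have been missed.

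The labelled cell type was checked first, together with the targeted genes. Levels are in RPKM, reads per kilobase of exon, scaled to the mapped reads of the library. Tet2 was between 2.57 and 4.08 RPKM in control libraries and between 0.202 and 0.358 RPKM in siTet1/Tet2 libraries. Tet1 did not exceed 0.098 RPKM in any library. The levels of the 14 stromal markers differed widely. Thy1, Lum and Lepr stayed under 0.15 RPKM in each library. Pdgfra was at 8.65 to 11.6 RPKM in control libraries and 0.805 to 1.09 RPKM in siTet1/Tet2 libraries. Col1a1 was at 394 to 655 RPKM in control and 48.4 to 104 RPKM in siTet1/Tet2 libraries, and Ly6a at 133 to 168 and 9.5 to 20.5 RPKM. The macrophage markers Csf1r (478 to 619 RPKM), Cd68 (780 to 1354 RPKM) and Adgre1 (279 to 364 RPKM) were abundant in all 6 libraries, so the cultures held macrophage transcripts at high levels next to stromal ones. Over 15 macrophage markers the summed level was 8545 to 11429 RPKM in control and 16922 to 19987 RPKM in siTet1/Tet2 libraries, and without Lyz2 it was 4997 to 6416 and 7080 to 7465 RPKM. The macrophage markers did not move as one, since 8 of 15 rose, 2 fell and 5 did not pass the test. Of all genes tested, 14.7% rose and 29.8% fell. Cd68, Csf1r and Lyz2 rose, Fcgr1 fell from 109 to 27.8 RPKM (adjusted p = 3.09e-06 from limma) and Mrc1 from 170.2 to 141 RPKM (adjusted p = 0.0327 from limma), and Adgre1, Spi1, C1qa, C1qb and C1qc did not pass. The summed level of the stromal markers was 1146 to 1660 RPKM in control and 143 to 290 RPKM in siTet1/Tet2 libraries. Of the 11 stromal markers tested, 0 rose, 10 fell and 1 did not pass the test, against the same shares of all genes. Erythroid markers, which would bring iron genes of their own, summed to 1.03 to 1.14 RPKM and 2.27 to 2.44 RPKM, most of it Epor, with the globin genes at 0.161 RPKM or less. In these bulk libraries a change in the share of a cell type and a change of RNA per cell cannot be told apart, and the part of the marker shifts in the results on iron genes was not tested.

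In the siTet1/Tet2 libraries, 6 of the 10 iron handling genes rose (Trf, Ftl1, Slc11a1, Fth1, Tfrc and Slc40a1), 2 fell (Cp and Ireb2) and 2 did not pass the test (Slc11a2 and Steap4). All 10 passed the filter on low values. The test was limma on log2(RPKM + 1), with p-values adjusted by Benjamini-Hochberg over 13266 genes. Among all genes tested 14.7% rose and 29.8% fell by the same rule, so a rise was the less frequent direction in the table and the frequent one among the members. The median log2 fold change of the 10 genes was 0.52, against -0.09 for all genes tested. The members were chosen with earlier results of these data known, so these comparisons describe the members and do not test them as a set. By the cut-offs the study applied (p under 0.05 before adjustment and a difference of more than 2-fold, here on the log2 scale with the pseudocount), Trf was altered and higher and Cp altered and lower, where 0.950% and 5.63% of all genes tested were. The groups did not overlap for any of the 10 genes, with 8 higher and 2 lower in siTet1/Tet2 libraries, and this held for 19.8% (higher) and 35.9% (lower) of all genes. The background depends on how the libraries are scaled, since 1953 genes rose and 3952 fell as deposited, 2855 and 2960 after scaling by median ratios, 3607 and 2627 once quantiles were equalised, and 826 and 6753 when each library was centred on the macrophage markers.

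**Figure D1:**
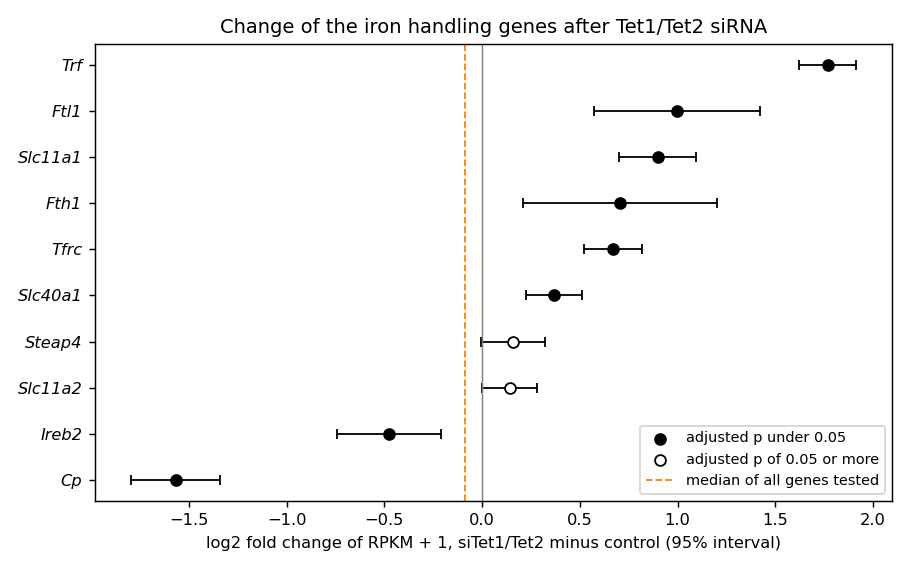
Log2 fold change (x axis, log2 of RPKM + 1, siTet1/Tet2 minus control) of each iron handling gene (y axis) with its 95% interval from limma; filled points have an adjusted p under 0.05, and the dashed line is the median of all genes tested. The values run from -1.57 for Cp to 1.77 for Trf, and the intervals of Steap4 and Slc11a2 reach to or close to 0.

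Of the uptake genes, Trf, the gene of the plasma iron carrier transferrin (chromosome 9 from 103204001 to 103230444), changed most. It was at 95.1, 93.5 and 90.2 RPKM in controls and reached 300.5, 327 and 330.3 RPKM after Tet1/Tet2 siRNA. Every siTet1/Tet2 library was more than 3 times as high as every control library in the same table. The group means were 92.9 ± 2.52 and 319 ± 16.3 RPKM (SD, n = 3), a 3.43-fold difference and a log2 difference of 1.77 ± 0.06 (SE) and a limma adjusted p of 8.61e-07. In the annotation Trf shares its strand with the gene model Gm20425, which has no row in the table.

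Tfrc encodes the receptor that carries iron-loaded transferrin into the cell, and its 3′ UTR holds the 4 hairpins printed above. Its level was 79.4, 84.0 and 85.4 RPKM in control libraries and 141, 130.2 and 126 RPKM in siTet1/Tet2 libraries. The control values lay within 6 RPKM of each other, and all siTet1/Tet2 values were above them. The mean rose 1.60-fold, with a log2 difference of 0.67 ± 0.07 (SE) and a limma adjusted p of 0.000104.

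Steap4, a metalloreductase that reduces ferric iron, was close to the detection limit. It stood at 0.144, 0.143 and 0.059 RPKM in control libraries and 0.339, 0.205 and 0.188 RPKM in siTet1/Tet2 libraries. The groups did not overlap, but the adjusted p was 0.109 from limma, with a log2 fold change of 0.16 and a 95% interval of -0.01 to 0.32. At the depth estimated from the steps of low values these levels correspond to about 17, 15 and 6 reads, and about 41, 25 and 21 reads. The pseudocount of 1 RPKM compresses a gene at this level, and the ratio of the means was 2.12.

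The NRAMP genes are paralogs with separate sites of action. Slc11a1, the phagosomal metal transporter of macrophages, was at 124, 116 and 99.1 RPKM in control libraries and at 209, 212 and 210.5 RPKM in siTet1/Tet2 libraries. The siTet1/Tet2 libraries were nearly identical to each other, with an SD of 1.44 RPKM against 12.8 RPKM among the controls. The mean rose 1.86-fold, with a log2 difference of 0.90 ± 0.09 (SE) and a limma adjusted p of 9.17e-05. Slc11a2, the broadly expressed transporter that releases iron from endosomes, was at 17.5, 17.4 and 16.7 RPKM and at 19.1, 19.5 and 18.6 RPKM. Its groups did not overlap, yet the difference was small, with a log2 fold change of 0.14 (95% interval 0.00 to 0.28) and an adjusted p of 0.094 from limma. Within a library the ratio of Slc11a1 to Slc11a2 was 5.95 to 7.11 in controls and 10.9 to 11.3 after Tet1/Tet2 siRNA. The difference of the log2 ratios was 0.75, with p = 0.1 in the two-sided exact permutation test, the smallest p that 3 libraries against 3 allow. Slc11a2 was lower by 0.10 on the log2 scale, without passing the test, when libraries were centred on the macrophage markers. It passed and was higher with median ratio scaling (0.25, adjusted p = 0.0143 from limma), with quantile normalization (0.27, adjusted p = 0.00849 from limma) and without a filter on low values (adjusted p = 0.0494 from limma).

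**Figure D2:**
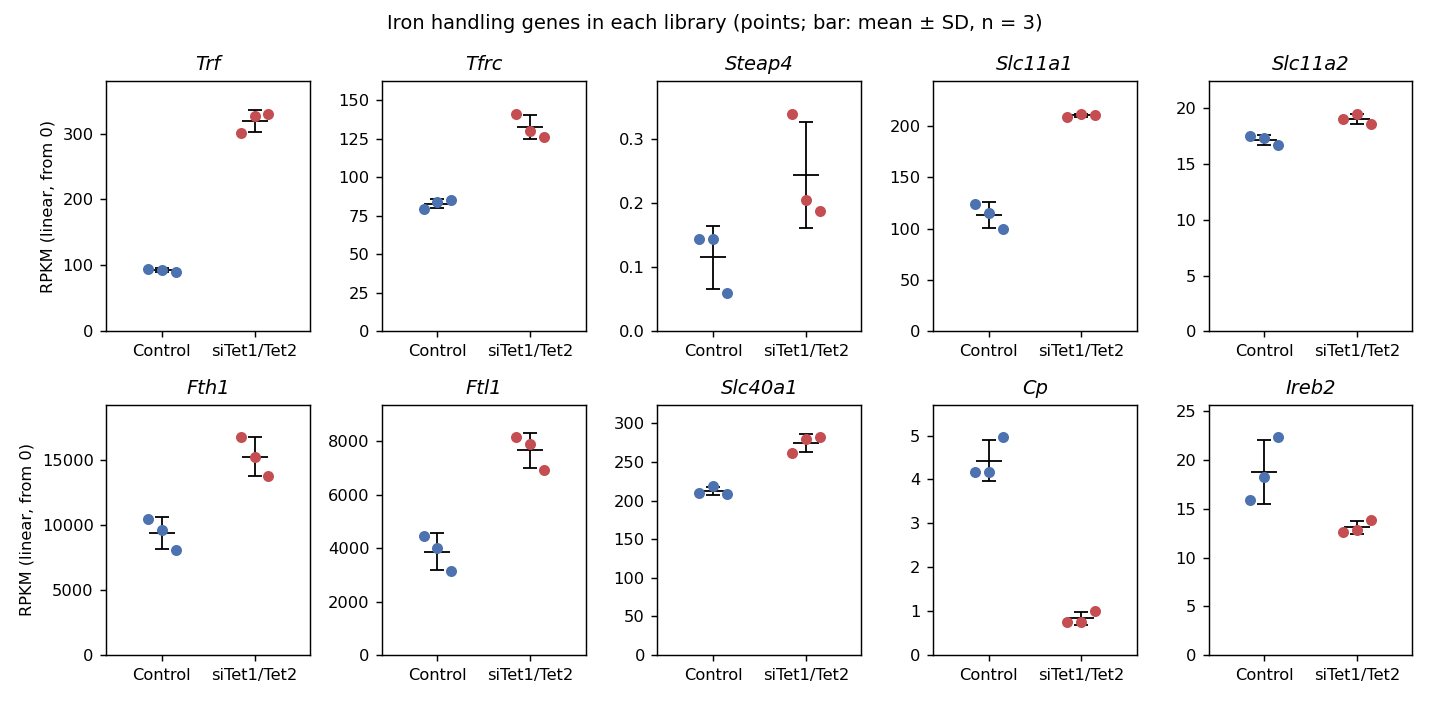
RPKM on a linear axis from 0 (y axis) in each control (blue) and siTet1/Tet2 (red) library for the 10 genes, with the mean and SD of each group (n = 3). Red points lie above all blue points in 8 panels and below them for Cp and Ireb2.

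Storage was the most abundant function. Fth1, the heavy chain that carries the ferroxidase site of ferritin, had the highest mean of all genes in the table and ranked 1 in every library. Its level was 10431, 9657 and 8043 RPKM in control libraries and 16754, 15252 and 13777 RPKM in siTet1/Tet2 libraries. The lowest siTet1/Tet2 library exceeded the highest control library, although the spread within each group was wide. The mean rose 1.63-fold, from 9377 ± 1219 to 15261 ± 1489 RPKM (SD, n = 3), with a log2 difference of 0.71 ± 0.22 (SE) and a limma adjusted p of 0.0284. The adjusted p was 0.113 without control replicate 2, 0.0947 without siRNA replicate 1, 0.11 without siRNA replicate 2 and 0.0502 without siRNA replicate 3, with the log2 fold change between 0.64 and 0.78 in these limma fits, and it was 0.404 without a filter on low values. Quantile normalization gives a gene at rank 1 in each library a difference of 0 by construction.

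Ftl1, the light chain that helps the mineral core to form, was at 4474, 4010 and 3131 RPKM in control libraries and at 8151, 7891 and 6936 RPKM in siTet1/Tet2 libraries. It ranked 5 to 7 among all genes in each library. The mean rose 1.98-fold with a log2 difference of 1.00 ± 0.18 (SE) and a limma adjusted p of 0.00289, and without a filter on low values the adjusted p was 0.0608. After quantile normalization its log2 fold change was 0.04, with an adjusted p of 0.804. Together the ferritin chains took 2.84% to 3.45% of the summed RPKM in control libraries and 4.89% to 5.66% in siTet1/Tet2 libraries (p = 0.1, two-sided exact permutation test, the smallest possible). The annotation names 5 further loci as ferritin chain copies, none of which has a row in the table, so reads of such copies may be counted within Fth1 and Ftl1.

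The balance of the chains can be read within each library. The ratio of Fth1 to Ftl1, which is independent of the scaling of a library, was 2.33, 2.41 and 2.57 in control libraries and 2.06, 1.93 and 1.99 in siTet1/Tet2 libraries. The ratio was lower in each siTet1/Tet2 library than in any control library, and the log2 ratio fell by 0.29 (p = 0.1, two-sided exact permutation test, the smallest possible). The ratio of Tfrc to Fth1, the uptake receptor against the storage chain, overlapped between the groups. It was 0.00761, 0.00870 and 0.0106 in control libraries and 0.00844, 0.00854 and 0.00915 in siTet1/Tet2 libraries (p = 0.8, two-sided exact permutation test). Its log2 difference was -0.03, and 0.10 without control replicate 3.

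**Figure D3:**
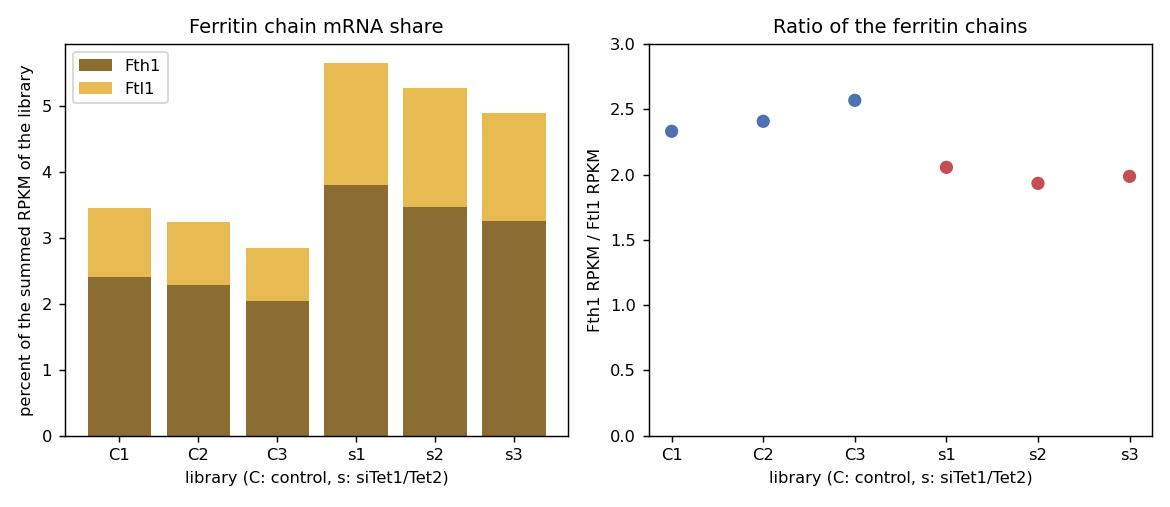
Left: share of Fth1 and Ftl1 in the summed RPKM of each library (y axis, percent), stacked. Right: ratio of Fth1 to Ftl1 RPKM in each library; the control libraries lie at 2.33 to 2.57 and the siTet1/Tet2 libraries at 1.93 to 2.06.

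Of the export genes, Slc40a1 encodes ferroportin, the iron exporter of vertebrate cells (chromosome 1 from 45908068 to 45926523). It was at 209, 219 and 209 RPKM in control libraries and at 261, 280.0 and 282 RPKM in siTet1/Tet2 libraries. The groups were tight and apart, and the rise was 1.29-fold with a log2 difference of 0.37 ± 0.06 (SE) and a limma adjusted p of 0.00193. When each library was centred on the macrophage markers, the log2 fold change was 0.11 and the adjusted p 0.182.

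Cp, the gene of the ferroxidase ceruloplasmin that oxidises iron as it leaves the cell, went the other way. It was at 4.16, 4.16 and 4.96 RPKM in control libraries and at 0.748, 0.745 and 0.998 RPKM in siTet1/Tet2 libraries. All siTet1/Tet2 values were under 1 RPKM, and the mean was 5.33-fold lower. The log2 difference was -1.57 ± 0.10 (SE) with a limma adjusted p of 1.42e-05, and -2.41 with a pseudocount of 0.01 RPKM. Cp overlaps Hps3 on the other strand in the annotation, and Hps3 was at 14.7 ± 0.800 and 14.4 ± 0.401 RPKM (SD, n = 3), a difference within the spread of the libraries (adjusted p = 0.796 from limma). The table does not say whether counting used the strand.

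Ireb2 encodes iron regulatory protein 2, which binds the hairpins when iron is scarce. Its level was 15.9, 18.2 and 22.3 RPKM in control libraries and 12.6, 12.8 and 13.9 RPKM in siTet1/Tet2 libraries. The control libraries were spread widely, and the highest siTet1/Tet2 library was below the lowest control library. The mean was 1.44-fold lower, with a log2 difference of -0.48 ± 0.12 (SE) and a limma adjusted p of 0.0107, and the adjusted p was 0.128 without a filter on low values.

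By mean RPKM, a level per length of exon that can be set beside that of another gene, the order was Fth1, Ftl1, Slc40a1, Trf, Slc11a1, Tfrc, Slc11a2, Ireb2, Cp and Steap4. The place of Trf depended on the group. In the control libraries (92.9 RPKM) it lay below Slc40a1 (212 RPKM) and Slc11a1 (113 RPKM), and in the siTet1/Tet2 libraries (319 RPKM) it lay above both (274 and 210.5 RPKM). Slc11a2 and Ireb2 overlapped in the control libraries and not in the siTet1/Tet2 libraries. Within the control group, replicate 3 had the lowest value for 7 of the 10 genes and the highest for the other 3. That library also had the lowest macrophage sum (8545 RPKM) and the highest stromal sum (1660 RPKM) of the controls, and siRNA replicate 3 had the lowest macrophage sum and the highest stromal sum of its group. The part of these differences between libraries in the spread of the iron genes was not tested.

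**Figure D4:**
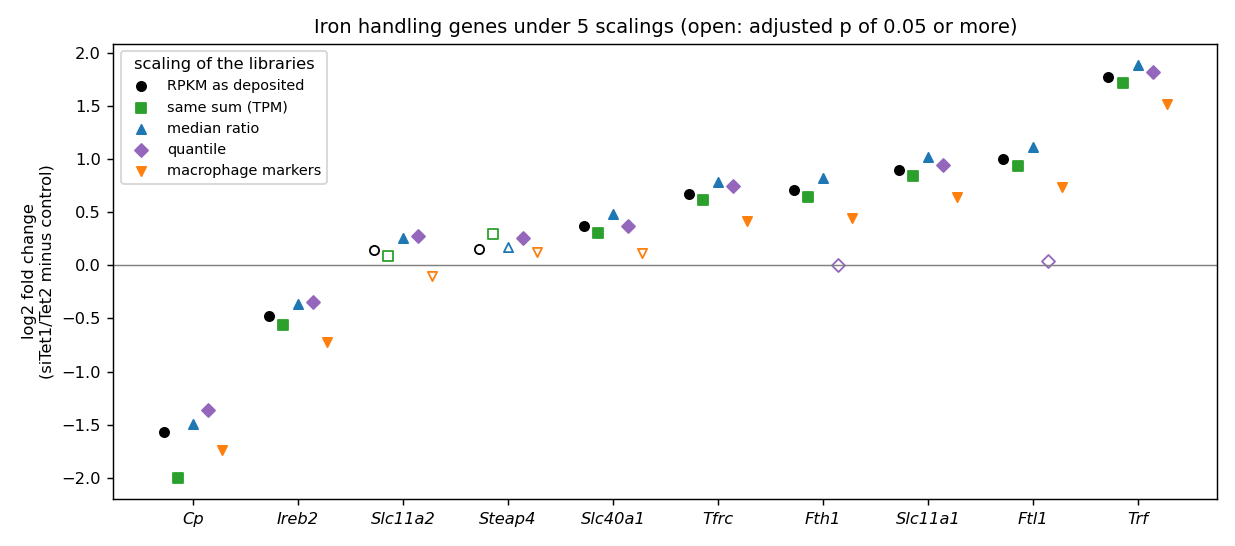
Log2 fold change (y axis) of the 10 genes under the deposited scaling and 4 others; open symbols have an adjusted p of 0.05 or more. Fth1 and Ftl1 drop to 0.00 and 0.04 with quantile normalization, and centring on the macrophage markers gives each gene a lower value than the deposited scaling.

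Other genes of iron and haem handling were compiled by hand in 6 groups by role, with earlier results of these data known. Of the 67 with a row, 58 were tested. Of these, 19 rose, 15 fell and 24 did not pass the test, with a median log2 fold change of 0.02 against -0.09 for all genes tested. The share of all genes tested was 14.7% higher and 29.8% lower, and the 15 falls among 58 genes were near that share. The split was 23 higher and 10 lower with quantile normalization, and 8 higher and 26 lower when centred on the macrophage markers.

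Haem breakdown and transport was the group with the most rises, with 7 of 12 tested genes higher and 3 lower (14.7% and 29.8% of all genes tested). Hmox1, the haem oxygenase that frees iron from haem, was at 899, 803 and 705 RPKM in control libraries and at 1623, 1590 and 1443 RPKM in siTet1/Tet2 libraries (log2 fold change 0.96, adjusted p = 0.000284 from limma). Slc48a1, which moves haem out of the phagolysosome, rose from 111 ± 14.8 to 228 ± 6.28 RPKM (SD, n = 3). Blvrb, a biliverdin reductase, rose from 141 to 255 RPKM (adjusted p = 0.0847 from limma without a filter on low values), and the haemoglobin-haptoglobin receptor Cd163 from 5.71 to 9.19 RPKM. Lrp1, which takes up haem bound to haemopexin among many other ligands, was higher by 0.55 on the log2 scale (adjusted p = 0.0214 from limma), and its adjusted p was over 0.05 in 8 of 17 alternatives. Hp, the gene of haptoglobin, which binds free haemoglobin, fell from 66.0 to 30.3 RPKM.

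Among the genes of storage and sensing, 3 of 7 rose and 0 fell (14.7% and 29.8% of all genes). Ncoa4, the receptor that delivers ferritin to the lysosome for breakdown, was at 21.8, 22.6 and 21.6 RPKM in control libraries and at 45.7, 43.3 and 41.1 RPKM in siTet1/Tet2 libraries (log2 fold change 0.95, adjusted p = 1.69e-05 from limma). Aco1, the cytosolic aconitase that doubles as iron regulatory protein 1, rose from 24.3 to 30.8 RPKM. Fbxl5, which targets Ireb2 protein for degradation, was at 14.5 and 13.7 RPKM and did not pass the test (adjusted p = 0.443 from limma). Aco1 and Fbxl5 were singled out for their link to Ireb2 after their values had been seen.

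Of the uptake genes other than the members, 2 of 8 rose and 3 fell, where 14.7% and 29.8% of all genes did. Steap1 and Steap2, of the same metalloreductase family as Steap4, fell from 4.35 to 1.50 and from 2.97 to 1.02 RPKM (for Steap1 the adjusted p was 0.0693 from limma without the filter), and Slc39a14, a transporter of iron not bound to transferrin, fell from 10.8 to 5.22 RPKM. In contrast, Steap3, the endosomal ferrireductase, rose from 14.8 to 19.3 RPKM (adjusted p = 0.0034 from limma), and it too was picked after its value had been seen. Of the export and hepcidin group, 1 of 5 rose and 3 fell (14.7% and 29.8% of all genes). The largest decrease was that of Neo1, a receptor of the BMP branch that controls hepcidin, which went from 7.27 ± 0.956 to 1.95 ± 0.430 RPKM (SD, n = 3). The hepcidin gene Hamp was listed at the lowest value of the table, 0.001 RPKM, in all 6 libraries.

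Of the genes of haem synthesis, 4 of 11 rose, 1 fell and 6 did not pass the test (14.7% of all genes rose and 29.8% fell). For mitochondrial iron and iron-sulphur cluster genes the counts were 2 of 15 higher, 5 lower and 8 that did not pass, close to the 14.7% and 29.8% of all genes. The largest decrease there was that of Fdxr, the ferredoxin reductase, from 5.88 to 3.63 RPKM (log2 fold change -0.57, adjusted p = 0.00151 from limma).

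**Figure D5:**
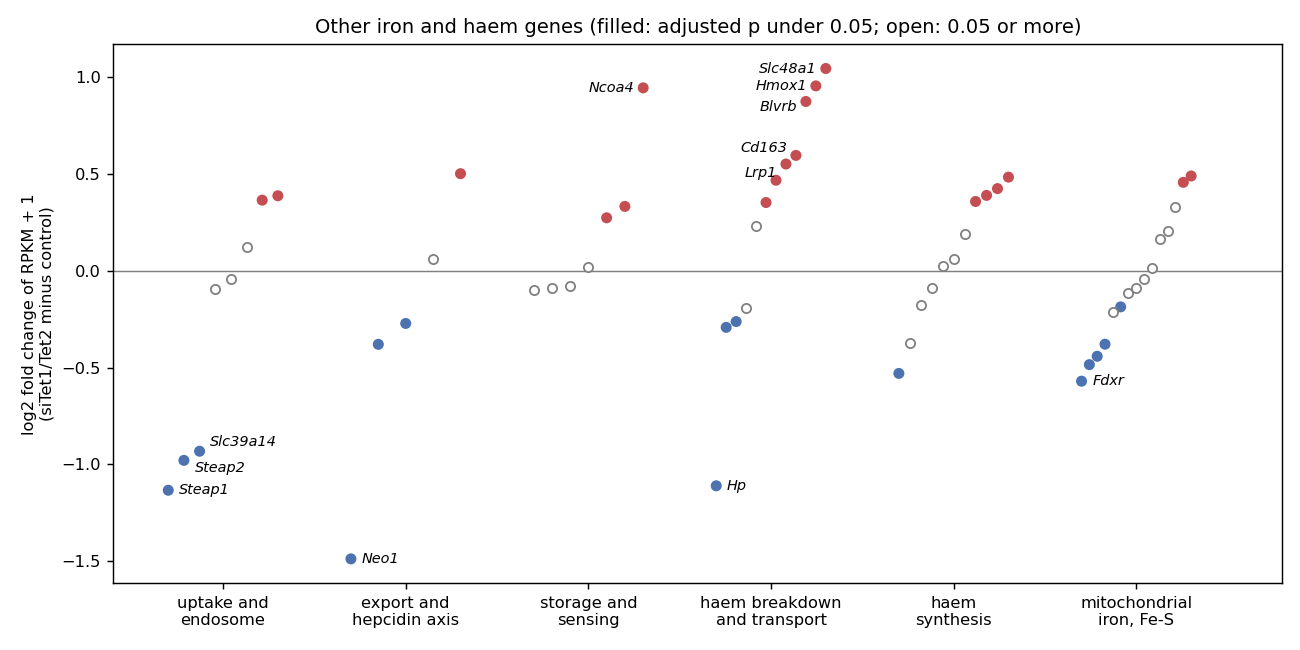
Log2 fold change (y axis) of the 58 other iron and haem genes tested, by role (x axis) and in rising order within a role; filled points have an adjusted p under 0.05 and open points do not. The 12 named genes are the largest changes in each direction, from -1.49 for Neo1 to 1.05 for Slc48a1.

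Since Tet enzymes act on methylated CpG sites, the number of CpG was counted in RefSeq promoter windows of GRCm38.p6, 250 bases before to 50 bases after a start, which were given for 7 of the 10 members. Trf, the member that rose most, Slc40a1 and Slc11a2 had no window and are not part of this count. The median over 32851 windows was 7. Windows of Tfrc held 30 and that of Ireb2 held 28 CpG, and 11.7% and 14.2% of all windows held at least as many. For Fth1 the counts were 4 and 27 in its 2 windows, for Ftl1 20, for Steap4 16, for Slc11a1 7, and for Cp 2 and 4. Genes that rose (Tfrc, Ftl1) and a gene that fell (Ireb2) were both among the CpG-rich windows. No methylation was measured in these libraries.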

How the data were processed

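RNA-seq of 6 libraries was examined. The authors deposited RPKM on a linear scale, a unit the methods call FPKM, from adaptor-trimmed reads aligned to GRCm38 and quantified in DNASTAR Lasergene 15.0. Annotation, strand use and handling of multi-mapping reads are not given in the sources used here. The column with the authors' own p-value was not used. The table gives no read totals. From the steps of low values in genes with 1 transcript the depth was estimated at 32400000 to 38700000 reads per library. Between 57.3% and 62.4% of those values lay within 0.1 of a whole read, where 20% is expected for a depth not chosen for its match, so no count test was run.

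Where a symbol had several rows (37 symbols), only the row of highest mean entered. The filter kept 13266 genes averaging 0.1 RPKM or more, and these were tested on log2(RPKM + 1) with limma 3.58.1 in R 4.3.3 (eBayes with trend, two-sided) and Benjamini-Hochberg adjustment. Fold changes on this scale understate those of low genes. The limma script was tested on simulated data. Ratios within a library were compared with an exact permutation test in Python 3.11.15 (scipy 1.17.1), which cannot go under 0.1 for 3 against 3.

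The members, gene lists and tests were chosen with earlier results of these data known. The rule for genes named took all members, the targeted genes, and of the other iron and haem genes up to 6 in each direction with the largest log2 fold change, an adjusted p under 0.05 and groups that do not overlap. Older symbols were matched through RefSeq synonyms. Of the neutrophil, endothelial and lymphoid markers, the summed levels were 3.40 to 3.54, 4.25 to 5.04 and 0.042 to 0.11 RPKM in control libraries and 9.35 to 16.2, 7.33 to 7.71 and 0.043 to 0.07 RPKM in siTet1/Tet2 libraries. Replicates of a group correlated with r of 0.992 to 0.997 across genes. The labels share replicate numbers between the groups. Deviations from the group means correlated across genes with r = 0.149, 0.117 and 0.462 for numbers 1, 2 and 3, all over 0.1, so the numbers were taken as pairs in an alternative fit. No label states what a shared number means, and control 1 with siRNA 2 reached 0.332.

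Alternatives were other pseudocounts, filters and scalings, eBayes without trend, the replicate block, summed rows and each library left out. Centring on the macrophage markers was added after seeing the data.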

Additional observations from a re-analysis of the deposited data

How the results depend on the processing

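Of 407 values of named genes under the alternatives, 404 kept their direction and 381 also their side of the threshold. The filters, eBayes without trend, the replicate block and summed rows left each log2 fold change as it was. The direction could not turn in those fits. The other iron and haem genes counted here had been named for large changes in these same data, so the tally does not measure how robust the genes are. The direction turned for Slc11a2 (-0.10) and Tet3 (-0.11), both when each library was centred on the macrophage markers, and neither had passed the test as deposited. Fth1, which had passed, was at 0 with quantile normalization, by construction. The number of members that rose was 6 with the replicate block, and the number that fell was 2. The block changed no call of a member. It gave 21 higher and 17 lower of the other iron and haem genes, against 19 and 15. With each library left out in turn, 5 to 6 members rose, 2 fell, and 2 to 3 were altered by the thresholds of the paper. Without a filter on low values, where 36870 genes were tested, 5 members rose and 1 fell, with Slc11a2 among those that rose and Fth1 and Ftl1 not. With median ratio scaling 7 rose and 4 were altered, and 5 rose when centred on the macrophage markers. After quantile normalization 6 members rose, with Slc11a2 (adjusted p = 0.00849 from limma) and Steap4 (adjusted p = 0.033 from limma) among them and Fth1 and Ftl1 not.

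Of the other iron and haem genes, 11 rose and 6 fell without the filter, and 8 rose and 26 fell when centred on the macrophage markers, which lowers all genes (median log2 fold change -0.28 against -0.09). Leaving out a library gave 16 to 19 rises and 9 to 15 falls, the lowest without siRNA replicate 1. The cause was not tested. The log2 ratio of Tfrc to Fth1 ranged from -0.14 to 0.10 with a library left out, that of Fth1 to Ftl1 from -0.32 to -0.25, and that of Slc11a1 to Slc11a2 from 0.68 to 0.81. The values of Steap4 rest on few reads, and its ratio of 2.12 is imprecise at this depth.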
